A study of Mus with 2 samples.

Results

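The 10 genes described here encode the 2 growth factors of macrophages, Csf1 and Il34, with their receptor Csf1r, the chemokines Cx3cl1, Ccl2, Cxcl12 and Cxcl14, and the chemokine receptors Cx3cr1, Cxcr4 and Ackr3. They were listed by symbol, with earlier results of these data known and no threshold on a measured value, and each of the 10 symbols matched 1 of the 28693 features of the count tables. RNA was counted in single cells of kidneys from newborn mice (P0) of the genotype Rbpj c/- ; Foxd1cre/+, in which Foxd1Cre, active in the lineage of the renal interstitium, deletes a floxed allele of Rbpj, the DNA-binding partner of Notch receptors. The study's design names 4 libraries, of which 2 are controls (Rbpj c/+ ; Foxd1cre/+) that carry the same Cre allele and the floxed allele beside a wild-type one. Cells outside the Foxd1 lineage are not the target of this Cre. Like all cells of a c/- animal they carry the null allele, written as -. They so have no wild-type allele of Rbpj beside the floxed one. Which classes hold cells in which the Cre had acted, podocytes included, was not tested here. The 2 mutant libraries, replicates 1 and 2 of 1 group, were analysed, and the controls were not analysed here, so that all comparisons are between cell classes within mutant kidneys. The labels do not say whether a library came from 1 animal or from a pool. The p-values then measure how far differences between classes vary between these 2 libraries, pooled over the classes. That spread may be technical.

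CSF1 and IL-34 are unrelated secreted proteins that bind the same receptor tyrosine kinase, CSF1R, on which tissue macrophages depend for survival. CX3CL1 is a chemokine made as a membrane-bound stalk and shed from it, with CX3CR1 on macrophages as its receptor, and CCL2 recruits monocytes through CCR2. CXCL12 guides cells that carry CXCR4, while ACKR3 binds the same ligand and removes it without signalling through G proteins. In the developing kidney the CXCL12 system is known for its part in the vessels of the glomerulus. CXCL14 is a chemokine whose receptor is not agreed on.

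Replicates 1 and 2 held 163405630 and 135436576 unique molecular identifiers (UMIs, counts of distinct RNA molecules). After removal of barcodes under 2000 UMIs or over 10% mitochondrial UMIs and of predicted doublets, 5910 and 4937 cells were kept, with medians of 11727.5 and 12196 UMIs. Only 8 barcode sequences occurred in both libraries. Rbpj itself was read at 46.5 and 47.1 CPM (the usual scaling of a count to the total UMIs, here those of the cells summed) over all kept cells and at 25.2 and 24.2 CPM in stroma, but the labels do not give the deleted exons, and counts from 3' ends check nothing where the deleted part lies elsewhere. Cells were clustered without the 10 genes, and clusters were named from marker lists that hold none of them, so neither step read the genes reported. Every class name stands for cells that resemble that type in marker RNA (macrophage-like, stroma-like and so on) and is used here without the ending. The macrophage class had 104 and 79 cells, 1.76% and 1.60% of those kept, with all 8 of its markers detected in at least 10% of the cells. Their summed level was 16500 and 14200 CPM there, against 2.96 to 8.59 CPM in the 9 other stromal, endothelial and epithelial classes. The distal tubule class was less distinct, with its own markers at a summed 2820 and 1940 CPM. It also carried those of loop of Henle at 1620 and 1190 CPM and those of ureteric epithelium at 712 and 766 CPM.

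Csf1r (chr18:61105572-61131139, mm10), the receptor of both growth factors, was highest in macrophages, which held 59.9% and 75.2% of its UMIs in kept cells. Its level there was 592 CPM in replicate 1 (95% interval 547 to 640, covering counting error only, as do all such intervals here) and 668 CPM in replicate 2 (617 to 723). After thinning every cell to 4600 UMIs, 91.9% and 93.5% of macrophages carried a Csf1r UMI, against 0.0953% and 0.0927% of nephron progenitors (0.566% and 0.55% before thinning, median depths 9302 and 11121 UMIs in macrophages, 14877 and 14034 in nephron progenitors). Before thinning, with the 18 and 17 shallower macrophages included, the shares were 85.6% and 88.6%.

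Podocytes, the filtering epithelium of the glomerulus, held the next highest Csf1r level of the 10 classes, 11.2 and 11.4 CPM (75 and 67 UMIs), and macrophages stood 53.0-fold and 58.5-fold above them. Proximal tubule, the reabsorbing segment that follows the glomerulus, followed at 9.08 and 3.89 CPM, and replicate 2 was the lower of the pair. The 7 other classes were at most at 1.31 CPM. The summed 8 macrophage markers were at 6.10 and 4.09 CPM in podocytes and at 4.05 and 3.01 CPM in proximal tubule, so that Csf1r was 1.83 and 2.79 times that sum in podocytes and 2.24 and 1.29 times in proximal tubule, while it was 0.0359 and 0.0471 times that sum in macrophages. None of the podocytes or proximal tubule cells held 3 or more macrophage markers. Of the 46 podocytes with a Csf1r UMI in each library, 6 and 3 held any macrophage marker, as did 17 of 59 and 4 of 23 such proximal tubule cells. The share of marker-holding cells among those without Csf1r is not given here. Whether these Csf1r UMIs came from the cells themselves, from free RNA or from doublets was not tested.

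The 2 growth factors were highest in different classes. Csf1 (chr3:107741048-107760469) was highest in endothelium, at 24.2 and 17.3 CPM (239 and 111 UMIs), and in stroma, at 17.0 and 15.4 CPM (226 and 166 UMIs). The ranges of these classes over the libraries lay close together without overlap, and the fitted difference of stroma from endothelium did not pass the test (log2 difference -0.40 ± 0.21 SE, adjusted p = 0.12). Ureteric epithelium, the collecting duct tree, came next at 5.94 and 6.44 CPM, ahead of podocytes at 4.62 and 4.43 CPM. Early nephron (1.76 and 1.57 CPM), macrophages (1.86 and 1.06 CPM, 2 and 1 UMIs), loop of Henle and distal tubule had the lowest levels, and each overlapped with the next in this order.

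Il34 (chr8:110741829-110805949) was highest in the loop of Henle, the segment that dilutes the urine, at 32.7 and 36.2 CPM (160 and 166 UMIs). Distal tubule followed with 18.4 and 20.1 CPM, and loop of Henle was 1.77-fold and 1.81-fold above it. Ureteric epithelium (5.65 and 9.87 CPM) and proximal tubule (5.73 and 8.66 CPM) overlapped, and early nephron (4.58 and 5.13 CPM) and podocytes (4.02 and 2.90 CPM) came next. Stroma held 9 and 7 Il34 UMIs (0.676 and 0.651 CPM), endothelium 1 and 0, and macrophages none. A count of 0 allows up to 2.79 and 3.18 CPM in the macrophage class at a floor of 3 counts per library, and loop of Henle was at least 11.7-fold and 11.4-fold higher. Of the Il34 UMIs in kept cells, 30.7% and 34.4% lay in loop of Henle, which held 2.06% and 2.61% of the cells.

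**Figure D1:**
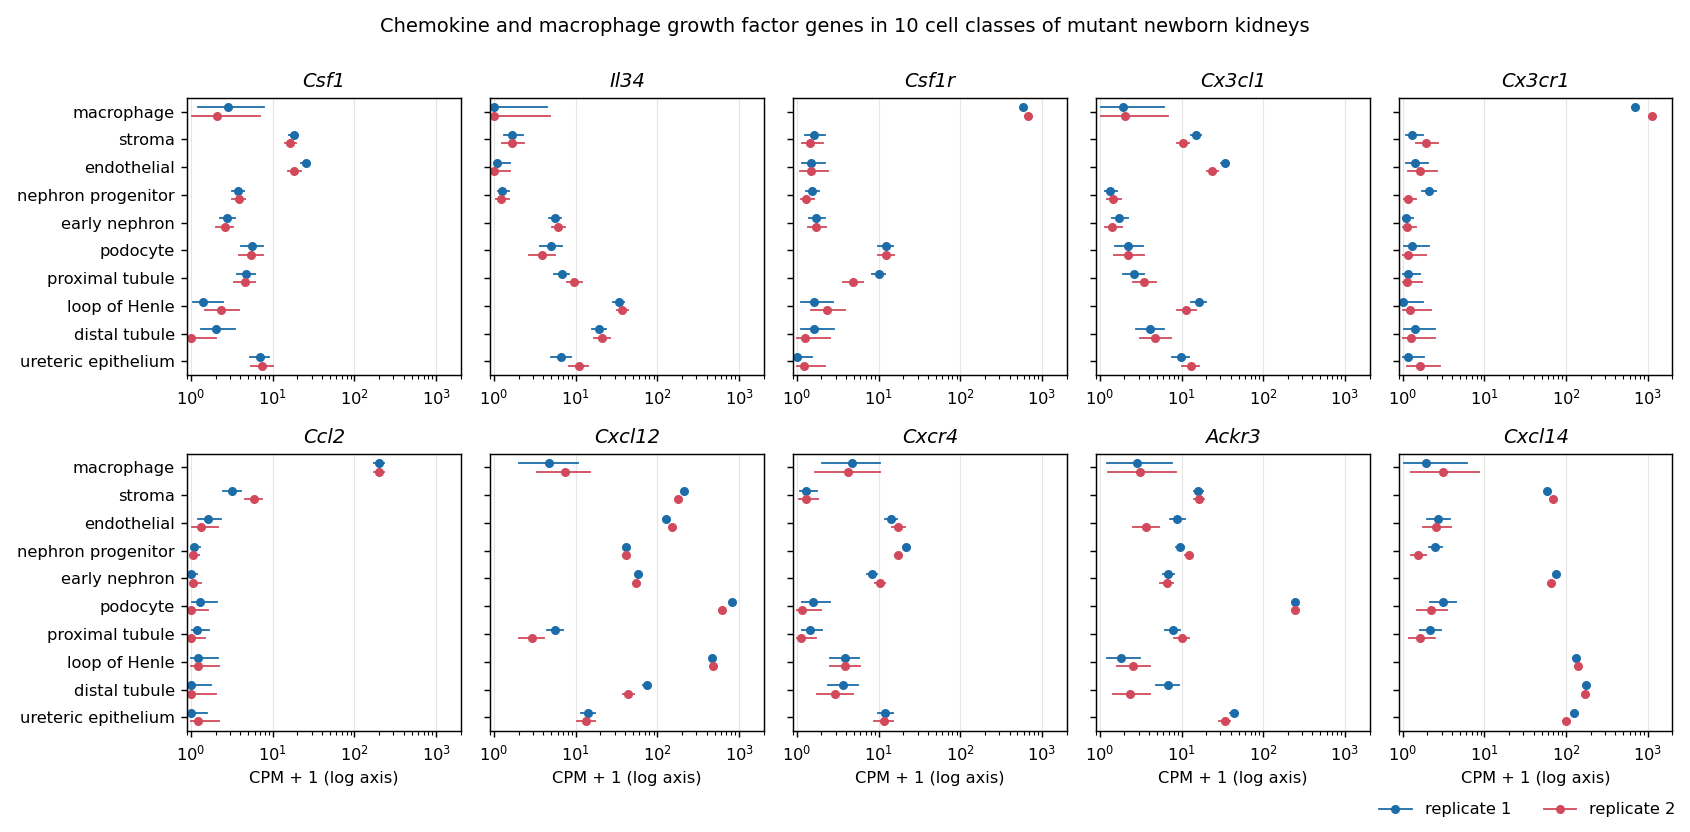
Level of each of the 10 genes (CPM + 1, log axis) in 10 cell classes, with 1 point per library and its exact Poisson 95% interval. Csf1r, Cx3cr1 and Ccl2 stand apart in macrophages, at 592 and 668, 688 and 1120, and 199 and 199 CPM, Ackr3 and Cxcl12 are highest in podocytes, and Il34 and Cxcl14 are highest in the loop of Henle and the distal tubule.

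Cx3cr1 (chr9:120048683-120068296), the fractalkine receptor, was at 688 CPM in the macrophages of replicate 1 (740 UMIs) and at 1120 CPM in those of replicate 2 (1057 UMIs), and the intervals of the libraries (640 to 740 and 1050 to 1190 CPM) did not overlap. The 9 other classes were at most at 1.09 CPM. In nephron progenitors 23 of the 29 UMIs of replicate 1 lay in 1 cell. Csf1r and Cx3cr1 were read together in 66 of 86 thinned macrophages of replicate 1 and in 54 of 62 of replicate 2 (76.7% and 87.1%), close to the product of their separate shares (73.7% and 86.0%).

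The ligand Cx3cl1 (chr8:94772180-94782427) was highest in endothelium, at 33.0 and 22.9 CPM (325 and 147 UMIs). Loop of Henle (15.3 and 10.5 CPM), stroma (14.1 and 9.48 CPM) and ureteric epithelium (8.77 and 12 CPM) followed and overlapped with one another. Endothelium held 44.6% and 34.8% of all Cx3cl1 UMIs and stroma 25.8% and 24.1%. Macrophages had 1 UMI in each library.

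Ccl2 (chr11:82035577-82037452) was read in macrophages at 199 CPM in both libraries (214 and 188 UMIs), which was 91.4-fold and 41.3-fold its level in stroma, the next class (2.18 and 4.83 CPM). Unlike Csf1r, it was spread unevenly over the cells. The 10 and 8 macrophages with the most Ccl2 UMIs, out of 104 and 79, held 54.7% and 66.0% of them, whereas the same numbers of cells ranked by Csf1r held 26.4% and 32.9% of the Csf1r UMIs. A Ccl2 UMI was found in 38.4% and 35.5% of thinned macrophages (47.1% and 46.8% before thinning) and in 0 of 1049 and 0 of 1079 thinned nephron progenitors, with upper 95% limits of 0.351% and 0.341% for a UMI at this depth (0.189% and 0.0917% before thinning). The stromal level rested on few cells: 20 of 29 UMIs in replicate 1 and 38 of 52 in replicate 2 came from 1 cell each, and without that cell stroma stood at 0.677 and 1.30 CPM.

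Cxcl12 (chr6:117168535-117181368) was the most widely read of the genes. Podocytes had 820 and 609 CPM (5504 and 3574 UMIs), and a Cxcl12 UMI was present in 70.1% and 68.8% of thinned podocytes (78.5% and 75.8% before thinning, at median depths of 7465 and 8359 UMIs). Loop of Henle followed at 466 and 474 CPM, then stroma at 213 and 180 CPM and endothelium at 128 and 151 CPM, and none of these 4 classes overlapped with its neighbours. Distal tubule (72.7 and 42.8 CPM) and early nephron (57.4 and 54.4 CPM) overlapped. Nephron progenitors had 40.7 and 39.9 CPM. Ureteric epithelium (13.2 and 12.4 CPM), macrophages (3.72 and 6.36 CPM) and proximal tubule (4.58 and 1.88 CPM) were lowest.

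In the stroma Cxcl12 was spread over the class, with 43.1% and 39.8% of thinned cells carrying a UMI (58.3% and 52.3% before thinning). The endothelial level came from few cells. There the 74 and 50 cells with the most Cxcl12, out of 743 and 496, held 95.4% and 97.9% of its UMIs. In stroma the 130 and 110 highest cells, out of 1303 and 1099, held 47.8% and 49.3%.

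Cxcr4 (chr1:128588199-128592299), the signalling receptor of CXCL12, was low in all of the 10 classes. Nephron progenitors (20.6 and 16.5 CPM, 548 and 376 UMIs) and endothelium (13.2 and 16.5 CPM, 130 and 106 UMIs) were highest and overlapped. Ureteric epithelium had 11.1 and 10.5 CPM and early nephron 7.36 and 9.54 CPM. Stroma held 4 and 3 Cxcr4 UMIs in all (0.30 and 0.279 CPM), and podocytes 4 and 1. Podocytes, stroma and proximal tubule overlapped at the low end. Of the Cxcr4 UMIs in kept cells 54.9% and 51.0% lay in nephron progenitors.

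Ackr3 (chr1:90203980-90215724), the scavenging receptor, was highest in podocytes at 241 and 244 CPM (1621 and 1434 UMIs). The next class, ureteric epithelium, had 42.9 and 32.8 CPM, and podocytes were 5.62-fold and 7.44-fold above it. Stroma followed at 15.1 and 15.3 CPM, then nephron progenitors at 8.60 and 11.3 CPM. Podocytes held 51.7% and 58.9% of the Ackr3 UMIs. In thinned podocytes 60.7% and 62.6% carried Ackr3 (79.3% and 81.4% before thinning), against 0 of 120 and 0 of 128 thinned loop of Henle cells, with upper 95% limits of 3.03% and 2.84% for a UMI at the thinned depth. Before thinning, at median depths of 19397 and 16691 UMIs, 3.28% and 3.88% of the loop of Henle cells carried one. Ackr3 and Cxcl12 were read in the same podocyte in 48.2% and 42.4% of thinned cells, with products of the separate shares of 42.6% and 43.1%.

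Among the 10 classes Cxcl14 (chr13:56288643-56296811) was highest in distal tubule at 175 and 171 CPM (845 and 629 UMIs), a class that also carried loop of Henle and ureteric markers. Loop of Henle had 130 and 140 CPM, ureteric epithelium 124 and 99.2 CPM, early nephron 74.2 and 63.9 CPM and stroma 57.5 and 67.7 CPM, of which the last 2 overlapped. The other 5 classes were at most at 2.12 CPM. In stroma the 130 and 110 highest cells held 99.2% and 96.2% of the Cxcl14 UMIs, and 8.09% and 10.6% of thinned cells carried one (10.4% and 12.6% before thinning).

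Differences between classes were tested on UMIs summed per library and class, in 1 fit of all 15241 genes that passed a filter on low counts, with library as a block. All 10 genes passed this filter and that of the second fit. A call is an adjusted p under 0.05, and changes are on the log2 scale. The value after ± is a standard error calculated back from the change and the F statistic of its test. A mean of classes is the mean of their fitted log2 levels, so classes near 0 lower it. A class called higher can therefore lie below the plain mean of the CPM values. Beside the counts of calls stands the share of all tested genes called in the same direction, since classes of cells differ in many genes.

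Macrophages were set against the mean of the 9 other classes. Of the 10 genes 3 were called higher, where 21.5% of all genes were, and 4 were called lower, where 25.6% were. The median change of the 10 genes was -1.41 (-0.96 with 3 counts in place of 0) and that of all genes -0.32. Cx3cr1 was higher by 11.64 ± 0.15 (adjusted p = 4.9e-27) and Csf1r by 9.59 ± 0.13 (adjusted p = 2.4e-26). Cx3cr1, at most at 1.09 CPM in the 9 other classes, could pass the filter on low counts through macrophages alone. Its call here only describes that level. Ccl2 was also called (adjusted p = 1.8e-21), with a change of 10.05 when 3 counts stand for its absence from distal tubule. Lower in macrophages were Cxcl12 (-3.75 ± 0.41, adjusted p = 2.4e-08), Cxcl14 (-3.17 ± 0.68, 0.00039) and Ackr3 (-2.29 ± 0.83, 0.025). Il34, at no UMI in macrophages, was called lower (adjusted p = 0.021), with a change of -0.81 at the floor of 3 counts. Csf1 (-1.11 ± 0.77), Cx3cl1 (-1.70 ± 0.94) and Cxcr4 (0.50 ± 0.56) did not pass the test, with adjusted p of 0.25, 0.15 and 0.51. In single libraries the change of Cxcl14 was -3.97 and -2.43. The calls of Il34 and Cxcl14 ended under some of the alternative settings (adjusted p of up to 0.23 and 0.57).

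Stroma was set against the same mean. Here 6 of the genes were called higher (33.5% of all genes) and 2 lower (25.5%), with a median of 1.5 against 0.01. Cxcl14 (2.75 ± 0.13, adjusted p = 4.1e-16), Cxcl12 (2.09 ± 0.11, 5e-15), Csf1 (2.64 ± 0.18, 1.7e-12), Cx3cl1 (2.19 ± 0.20, 8.6e-10), Ccl2 (3.51 at the floor, 9.7e-09) and Ackr3 (0.90 ± 0.20, 0.00045) were the 6. Stromal Ackr3 (15.1 and 15.3 CPM) was still below that of podocytes and ureteric epithelium. Stromal Cxcl12 (213 and 180 CPM) was below that of podocytes and loop of Henle. Cxcr4 fell by 3.46 ± 0.41 (adjusted p = 7.1e-08) and Csf1r fell by 1.76 ± 0.58 (0.011). The stromal Ccl2 UMIs lay mostly in the 1 cell per library described, and the fitted change was 3.52 and 4.92 in single libraries. The call of Ackr3 ended without cells over 50000 UMIs (adjusted p = 0.061).

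In endothelium 4 of the 10 were called higher (32.2% of all genes) and 2 lower (23.2%), with a median of 0.28 (0.06 at the floor) against 0.00 for all genes. Cx3cl1 rose by 3.61 ± 0.18 (adjusted p = 3.1e-15), Csf1 by 3.08 ± 0.18 (6.8e-14), Cxcr4 by 2.79 ± 0.19 (2e-12) and Cxcl12 by 1.58 ± 0.12 (8.8e-12). Endothelial Cxcl12 (128 and 151 CPM) was still below that of podocytes, loop of Henle and stroma. Cxcl14 fell by 3.03 ± 0.41 (5e-07). Csf1r was called lower (-1.87 ± 0.64, adjusted p = 0.015), but the change became 0.15 with doublets kept and 0.32 at a minimum of 5000 UMIs, and neither of these passed the test.

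The 6 nephron classes together were set against the mean of macrophages, stroma and endothelium, and 2 of the genes were called higher (35% of all genes) and 5 lower (27.3%), with medians of -1.12 and 0.12. Il34 was called higher (adjusted p = 1.4e-09). Its size is not given, because macrophages held no UMI of it and endothelium 1 and 0 UMIs. Cxcl14 was higher by 1.02 ± 0.31 (adjusted p = 0.0055), but the change was -1.04 (adjusted p = 0.034) without cells over 50000 UMIs, where no loop of Henle or distal tubule class was named. Lower in the nephron were Cx3cr1 (-4.89 ± 0.62, adjusted p = 2e-07), Csf1 (-2.22 ± 0.50, 0.00042), Cx3cl1 (-2.12 ± 0.65, 0.0062), Csf1r (-2.0 ± 0.40, 0.0001) and Ccl2 (-5.94 at the floor, 1e-09). In single libraries the change of Cx3cr1 was -4.67 and -5.62. The lower calls of Csf1r and Cx3cr1 rest on macrophages. Csf1r was at most at 0.601 CPM in stroma and 0.507 CPM in endothelium, below podocytes, proximal tubule, loop of Henle and early nephron. Cx3cr1 was at most at 0.93 CPM in stroma and 0.624 CPM in endothelium, near its nephron levels. Cxcl12 (0.40 ± 0.21), Cxcr4 (-0.24 ± 0.32) and Ackr3 (0.56 ± 0.36) did not pass the test. At a mitochondrial limit of 5% the call of Csf1 ended (-0.47, adjusted p = 0.94).

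Within the nephron, podocytes were set against the mean of the 5 other nephron classes. There 4 of the genes were called higher (29.2% of all genes) and 3 lower (33%), with medians of 0.67 (0.33 at the floor) and -0.09. Ackr3 rose by 5.65 ± 0.14 (adjusted p = 3e-22), Cxcl12 by 3.87 ± 0.10 (8.2e-22), Csf1r by 3.41 ± 0.26 (3.6e-11) and Csf1 by 1.48 ± 0.30 (0.00012). Cxcl14 fell by 3.45 ± 0.32 (5.4e-10) and Cxcr4 by 3.04 ± 0.49 (7.5e-06). Il34 was called lower at -0.77 ± 0.29 (adjusted p = 0.024), and the sign turned under 3 alternatives, with changes of 0.22 to 0.94. In replicates 1 and 2 alone the change of Csf1 was 1.57 and 2.37 and that of Cxcr4 -2.57 and -3.83.

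Stroma was also set directly against endothelium, with 5 of the genes called higher in stroma (25.4% of all genes) and 2 lower (26.4%), and medians of 0.32 and 0.01. Cxcl14 was 5.20 ± 0.24 higher (adjusted p = 9.3e-16), Ackr3 1.37 ± 0.28 (0.00016) and Ccl2 2.70 ± 0.55 (0.00019), the last with most stromal UMIs in the 2 cells described. The libraries differed in both: Ackr3 was 0.92 higher in replicate 1 alone and 2.53 in replicate 2, and Ccl2 was 1.81 and 3.89 higher. Cxcr4 fell by 5.62 ± 0.36 (1.3e-12) and Cx3cl1 by 1.28 ± 0.23 (4.3e-05) from endothelium to stroma. Cxcl12 was 0.46 ± 0.14 higher in stroma (adjusted p = 0.0082), but p rose to 0.059 without the replicate block, and the change became -0.38 at a mitochondrial limit of 5%. Il34 was called higher on 16 UMIs in stroma and 1 in endothelium.

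**Figure D2:**
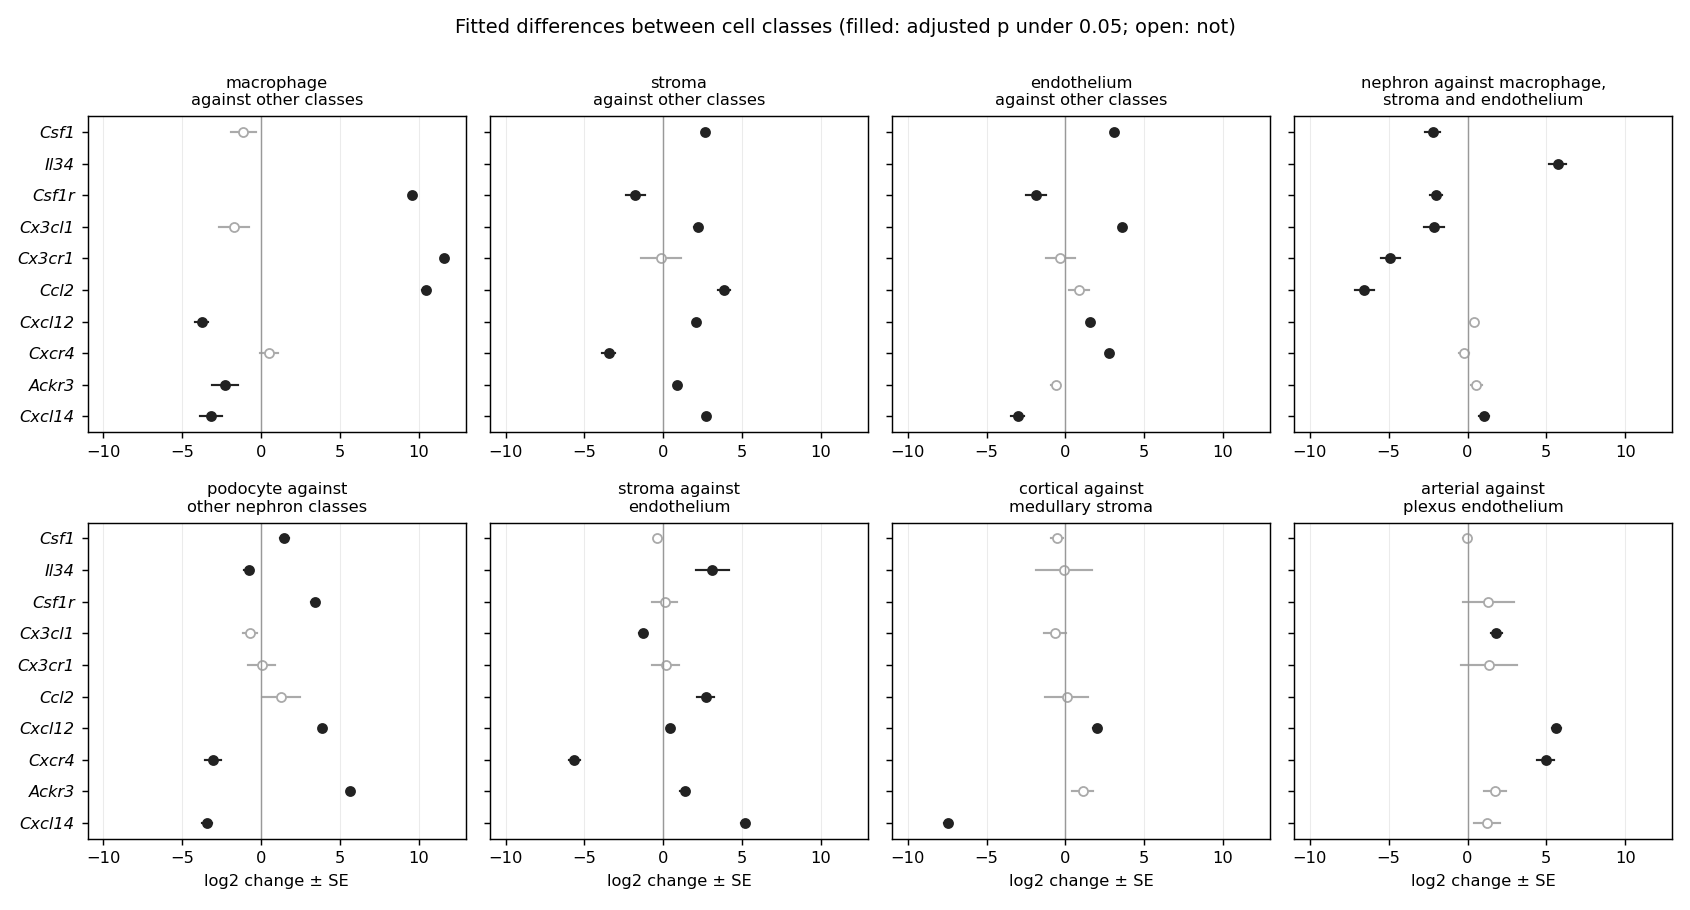
Fitted log2 change ± SE of the 10 genes in 8 comparisons of cell classes, with filled points for adjusted p under 0.05 and open points otherwise, and no point where the SE exceeded 2; points of Ccl2 and Il34 that involve a class at 0 depend on the prior count of the fit. Csf1r lies at 9.59 and Cx3cr1 at 11.64 in macrophages, Ackr3 at 5.65 and Cxcl12 at 3.87 in podocytes, and Cxcl14 at -7.44 in cortical against medullary stroma.

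Stromal cells were then gated one by one on markers of the renal zones. Cortical stroma (Foxd1, Ntn1, Fibin) had 340 and 300 cells, medullary stroma (Cck, Corin, Alx1, Lef1) 69 and 78, adventitial stroma (Clec3b, Dpt, Tnxb, Pi16) 49 and 33, and mesangial stroma (Ren1, Gata3, Des, Akr1b7, Itga8) 239 and 159. A gate is a range on a marker count and not a type. Of the 640 cortical cells 448 held the minimum of 2 markers, and of the 147 medullary cells 71 did, while 868 and 457 further stromal cells held 1 marker of those lists and lay outside. Of the 398 mesangial cells 363 held the minimum and 1013 cells lay just outside, so that this gate had the largest share of its cells at the minimum of the 4. Of the medullary cells 110 lay in the cluster led by Nts, Nrxn3 and Alx1, and cells of the gate carried the mesangial markers at a median of 251 CPM. Of the cortical cells 418 lay in the cluster led by Reln, Aox3 and Mgp and 152 in that led by Cdkn2c, Twist1 and Mxd3.

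Cxcl14 was higher in the medullary gate and Cxcl12 in the cortical gate. Cxcl14 was at 259 and 305 CPM in medullary stroma (188 and 262 UMIs) and at 1.82 and 1.26 CPM in cortical stroma (7 and 4 UMIs). Cxcl12 was at 195 and 170 CPM in cortical and at 52.4 and 41.9 CPM in medullary stroma. In the fit, 1 of the 10 genes was called higher in cortical stroma (7.59% of the 15038 genes tested) and 1 lower (7.14%), with medians of 0.00 (-0.60 at the floor) and 0.03. These were Cxcl12, by 2.0 ± 0.24 (adjusted p = 8.4e-08), and Cxcl14, which fell by 7.44 ± 0.28 (adjusted p = 4.5e-20) from medulla to cortex. Mesangial stroma had 65.4 and 72.5 CPM of Cxcl14, with a UMI in 12.1% and 16.4% of its cells, and 185 and 147 CPM of Cxcl12. Of its 398 cells 32 lay in the cluster led by Nts, Nrxn3 and Alx1.

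Adventitial stroma, the sheath of vessels, held the highest Csf1 of the stromal gates, 172 and 124 CPM (69 and 41 UMIs), where the 3 others lay between 11.7 and 24.5 CPM. Its Cxcl12 was 475 and 407 CPM, and its Ackr3 was 87.5 and 24.1 CPM (35 and 8 UMIs), a wide spread between the libraries. All 82 of its cells came from 1 cluster, led by Clec3b, Postn and Dpt. That cluster of 81 and 58 gated cells had 109 and 79.7 CPM of Csf1. The adventitial values were not tested.

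**Figure D3:**
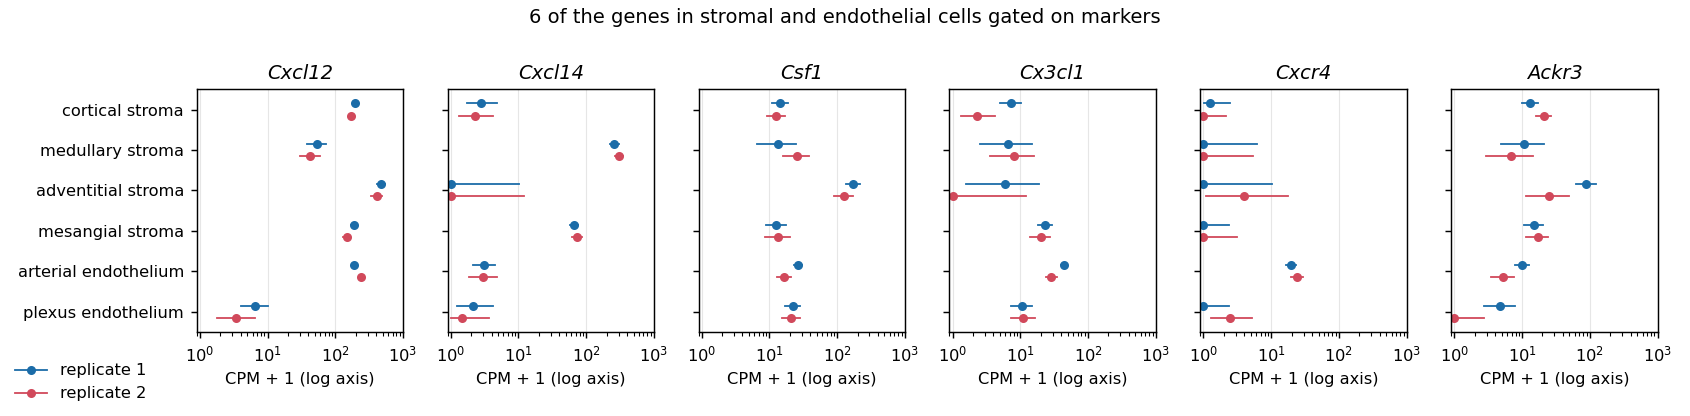
Level of 6 of the genes (CPM + 1, log axis) in 4 stromal and 2 endothelial gates, with 1 point per library and its exact Poisson 95% interval. Cxcl14 stands at 259 and 305 CPM in medullary stroma, Csf1 at 172 and 124 CPM in adventitial stroma, and Cxcl12 and Cxcr4 are higher in arterial than in plexus endothelium.

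Endothelial cells were gated as arterial (at least 2 of Sox17, Gja4, Gja5 and Efnb2; 393 and 244 cells) or plexus (an Aplnr UMI and under 2 arterial markers; 263 and 201 cells). Cxcl12 was at 185 and 237 CPM in arterial cells and at 5.50 and 2.40 CPM in plexus cells. Cxcr4 was at 18.7 and 23.2 CPM in arterial cells, while the plexus cells held 0 UMIs in replicate 1 and 3 UMIs, all in 1 cell, in replicate 2. That is at least 16.9-fold in replicate 1, at a floor of 3 counts per library, and a ratio of 16.1 (95% counting interval 5.35 to 79.6) in replicate 2. Cx3cl1 was at 43.4 and 27.7 CPM against 9.54 and 10.1 CPM in the plexus. Csf1 did not separate them, at 25.5 and 15.6 CPM against 21.3 and 20.1 CPM. Of the 10 genes 3 were called higher in arterial cells (7.45% of the genes tested) and none lower by edgeR's test (3.15% of all genes at the same adjusted threshold), with medians of 1.54 (1.33 at the floor) and 0.06. Cxcl12 rose by 5.64 ± 0.29 (adjusted p = 4e-16), Cx3cl1 by 1.84 ± 0.33 (0.00015), and Cxcr4 was called higher (6.1e-08; fitted change 4.97 ± 0.55, which depends on the few plexus UMIs). No gene of the 10 was lower at an unadjusted p under 0.05, and DESeq2 called 3 in all. Without doublet removal 5 of the genes were called. In single libraries the change of Cxcl12 was 5.07 and 6.57.

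By cluster, Cxcl12 was highest in other endothelial cells than Cxcr4 and Cx3cl1. The cluster led by Gja4, Stmn2 and Edn1 (133 and 80 cells) had 794 and 968 CPM of Cxcl12, 11 and 35.6 CPM of Cxcr4 and 15.9 and 17.8 CPM of Cx3cl1. The cluster led by Cd300lg, Hlx and Gpihbp1 (53 and 33 cells) had 22.1 and 6.74 CPM of Cxcl12, 50.0 and 78.2 CPM of Cxcr4 and 130 and 117 CPM of Cx3cl1. Of the 637 arterial cells 194 lay in the first of these clusters and 63 in the second, while 264 and 116 lay in the 2 other endothelial clusters, which also hold 310 and 144 of the 464 plexus cells. Of the arterial cells 400 held the minimum of 2 markers, and 350 endothelial cells held 1. All 464 plexus cells were at the minimum for that gate, and 388 endothelial cells with an Aplnr UMI lay outside it. The arterial cells carried Aplnr at a median of 111 CPM. The arterial gate holds cells of clusters with unlike levels. The other endothelial clusters, both with Aplnr and Plvap among their leading genes, had 5.22 to 36.0 CPM of Cxcl12 and 1.76 to 4.82 CPM of Cxcr4.

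Early nephron and stroma were divided as well. In early nephron the cluster led by Sim2, Spon1 and Fgf8 had 130 and 131 CPM of Cxcl12 and 162 and 143 CPM of Cxcl14, where the 2 other early nephron clusters had 2.97 to 4.73 CPM of Cxcl12 and 3.40 to 15.3 CPM of Cxcl14. In stroma, Cx3cl1 was highest in the cluster led by Clca3a1, Dpep1 and Figf, at 39.1 and 40.9 CPM, and Cxcl14 in the cluster led by Nts, Nrxn3 and Alx1, at 544 and 467 CPM, above the distal tubule class. These cluster values are descriptions and were not tested.

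**Figure D4:**
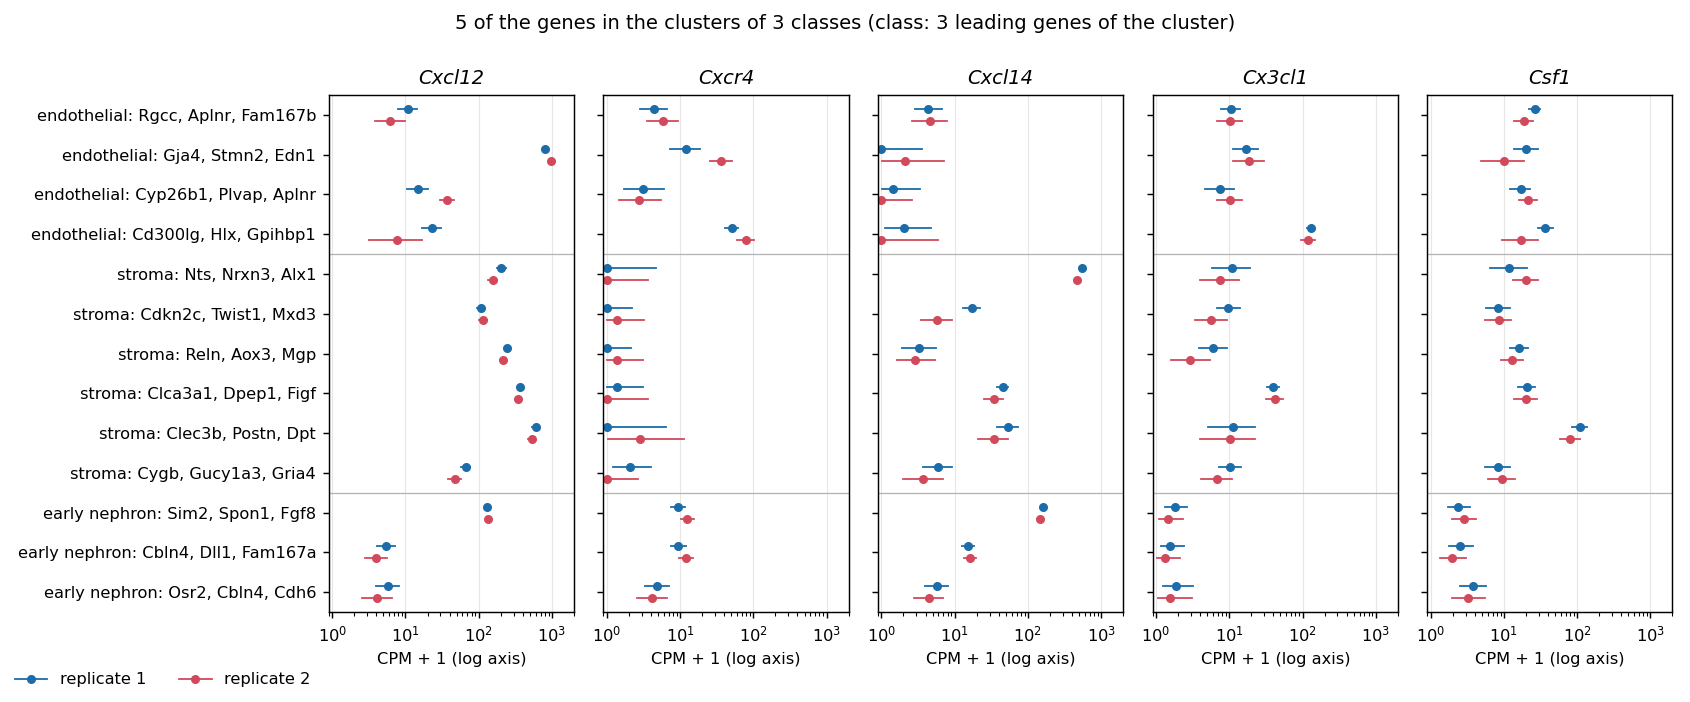
Level of 5 of the genes (CPM + 1, log axis) in the clusters of endothelium, stroma and early nephron, each named by its class and 3 leading genes, with 1 point per library and its exact Poisson 95% interval. Within endothelium Cxcl12 is highest in the Gja4-led cluster (794 and 968 CPM), and Cxcr4 and Cx3cl1 are highest in the Cd300lg-led cluster.

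Among the cells left without a class, a cluster led by Ccr2, Cd52 and Lyz2 (74 and 42 cells) had 217 and 183 CPM of Csf1r, 132 and 147 CPM of Cx3cr1 and 75.6 and 51.3 CPM of Ccl2. All 3 were lower than in the macrophage class in both libraries. Another, led by Ms4a2, Tmem132c and Tagln (248 and 162 cells), had 65.9 and 53.6 CPM of Ackr3 and 102 and 93.4 CPM of Cxcl12. Its Csf1 was at a mean of 16.6 CPM over the libraries (191 UMIs in both together), near the stromal level. Granulocytes had 14 and 1 Cxcr4 UMIs (76.6 and 30.9 CPM).

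Barcodes of 10 to 100 UMIs, far under the minimum set for a cell, numbered 39702 in each library. Csf1r was at 185 and 307 CPM in them, Cx3cr1 at 143 and 404 CPM and Ccl2 at 275 and 200 CPM, and the summed macrophage markers were at 1690 and 2880 CPM. All 3 genes were far above their levels over all kept cells (9.07 and 9.20, 7.46 and 12.5, and 2.63 and 2.89 CPM). Csf1, Cxcr4 and Cxcl14 also lay above theirs in both libraries, by less, while Cxcl12 and Ackr3 lay below. Outside macrophages Csf1r was at 11.2 and 11.4 CPM in podocytes and at 9.08 and 3.89 CPM in proximal tubule. In the other classes compared it was at most at 1.31 CPM. The part that the RNA of such low-count barcodes has in the levels outside macrophages was not tested.

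**Figure D5:**
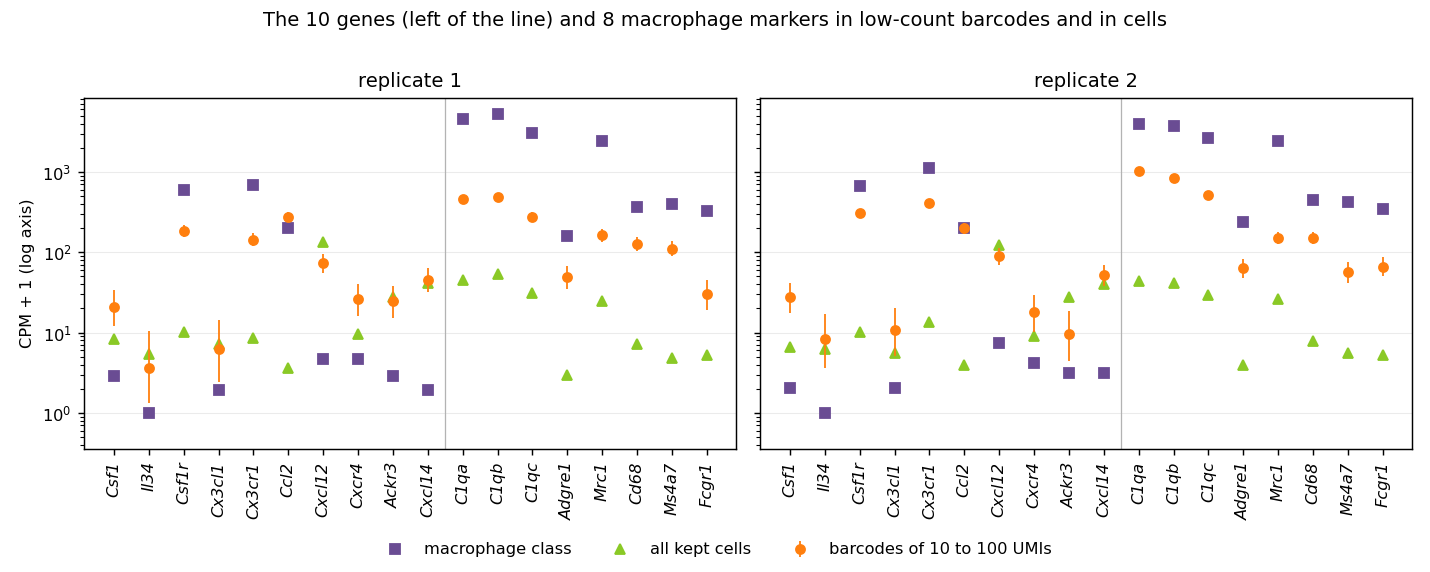
Level (CPM + 1, log axis) of the 10 genes and 8 macrophage markers in barcodes of 10 to 100 UMIs (with exact Poisson 95% intervals), in all kept cells and in the macrophage class, in 1 panel per library. Csf1r (185 and 307 CPM), Cx3cr1 and Ccl2 lie above all kept cells in the low-count barcodes of both libraries.

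A wider list of 53 genes held other chemokines, their receptors, other CSF genes and Sdc1 and Ptprz1, whose proteins are known to bind IL-34. Of these 49 matched 1 feature each and 27 passed the filter of the first fit, and a gene that is read in 1 class only could pass through that class alone, so the counts of calls describe the list and support nothing about it. In macrophages 18 of the 27 were called higher (21.5% of all genes) and 1 lower (25.6%). Genes of the list are named by their fitted change, which depends on the prior count of the fit where classes hold no UMI, so the order in which they stand is not a ranking. In macrophages these were Ccl24, Ccl12 and Pf4, ligands of the eotaxin, monocyte chemoattractant and platelet factor groups. Ccl24 was at 105 and 158 CPM in macrophages, and 6 of the other classes held no UMI of it. Ccl12 was at 433 and 373 CPM, with at most 0.376 CPM elsewhere, and Pf4 had 4889 and 5136 UMIs, with 32.9 and 26.7 CPM in endothelium as the next level. The lower gene was Sdc1, a heparan sulphate proteoglycan with no UMI in macrophages.

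In stroma 8 were called higher (33.5% of all genes) and 1 lower (25.5%). Cxcl13, the B cell chemoattractant, was at 15.6 and 17.0 CPM there, Ccl11 at 3.08 and 3.72 CPM and the scavenger Ackr4 at 5.71 and 2.42 CPM, and the lower gene was Csf2ra (-0.60 ± 0.11). In endothelium 6 were higher (32.2%) and 2 lower (23.2%). The scavenger Ackr2 was at 6.90 and 5.93 CPM, Csf2rb at 9.03 and 4.21 CPM (196 and 112 CPM in macrophages) and Ppbp at 0.812 and 1.09 CPM (8 and 7 UMIs, beside 54.9 and 5.30 CPM in macrophages), and the lower genes were Cxcl16 (-1.73 ± 0.44) and Csf2ra (-2.02 ± 0.15). In the nephron classes together 2 were higher (35%), Sdc1 and Csf2ra (0.23 ± 0.09), and 12 lower (27.3%), among them Pf4 (-6.73 ± 0.23), Csf2rb and Ccl7.

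Podocytes had 4 of the list higher than the other nephron classes (29.2% of all genes) and 3 lower (33%). Cxcl10 was at 4.47 and 51.3 CPM in podocytes, far apart between the libraries, and so it was in proximal tubule (2.20 and 25.5 CPM). Cxcl1 was at 4.02 and 5.45 CPM and Ackr4 at 1.49 and 0.852 CPM, and the lower genes were Ptprz1 (no UMI in podocytes), Cxcl16 (-2.57 ± 0.69) and Sdc1 (-2.33 ± 0.21). Between stroma and endothelium 7 were higher in stroma (25.4%), among them Cxcl13, Ccl11 and Ackr4, and 5 lower (26.4%), among them Csf2rb, Ackr2 and Ppbp, with the levels given. In the second fit, where 30 of the list were tested, Ackr4 (8.82 and 5.37 CPM in cortical stroma, no UMI in medullary stroma) and Cxcl13 (3.84 ± 1.11) were called higher in cortical stroma (7.59%) and Cxcl16 (-3.27 ± 0.87) lower (7.14%).

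For each of the 10 genes the 3 genes with the most similar levels over the 24 sums (12 classes in 2 libraries) were found by Pearson's r of log2(CPM + 1), as a description only, since sums of a library share depth and cells. Cx3cr1 was most like Rab39 and Cd200r1 (r = 0.996 each). Lyz2 (0.982) and Slamf9 (0.969) were among the 3 for Ccl2, and Csf1r was most like Pstpip2 (0.955). Il34 was most like Atp1b1 (0.936) and Tfcp2l1 (0.935), and Cxcl14 most like Slc27a6 (0.939). For Csf1 the highest was Piezo2 (0.890), for Ackr3 Slc41a2 (0.879), for Cx3cl1 Rarg (0.850), for Cxcl12 Plekhg1 (0.841) and for Cxcr4 Lrp8 (0.836).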

How the data were processed

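Single-cell RNA libraries of 2 kidney samples, read from 3' ends on the 10x Chromium platform per the labels' protocols, were analysed from the deposited raw counts of UMIs per gene and barcode. The file headers name Cell Ranger 4 and the submitters' processing notes name Cell Ranger 6.0.1 and mm10; how these steps relate is not given in the sources used here. Coordinates are RefSeq's for GRCm38.p6, the assembly of mm10. The 10 genes and all lists were chosen with earlier results of these data known.

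Barcodes with at least 2000 UMIs and at most 10% mitochondrial UMIs were kept (690 and 768 removed), and the barcodes with the highest Scrublet scores (run in scanpy) were removed at 0.8% per 1000 cells (310 and 212 barcodes). Clustering used scanpy 1.11.5 (2000 variable genes, 30 components, 15 neighbours, Leiden resolution 1) without the 10 genes, the chemokine list, EYFP, sex-linked and mitochondrial genes, and gave 34 clusters, of which 31 were named from 15 marker lists. Cells stayed in a class with at least 2 of its markers (macrophages 3). After the clusters were seen, a minimum score of 0.3 was set, markers of sub-gates were counted for their own class, and a cluster outscored by another list (the Ccr2-led one) was left unnamed.

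UMIs were summed per library and class and tested with edgeR 4.0.16 (TMM, filterByExpr, quasi-likelihood test, library as block, Benjamini-Hochberg over all genes tested, threshold 0.05). All classes with at least 20 cells per library entered 1 fit (24 columns, 12 classes, 11 residual degrees of freedom), and a second fit replaced stroma and endothelium by their gates (36 columns, 17 degrees of freedom). The first fit was tested on simulated data for stroma against endothelium, at a dispersion of 0.02 (0.00413 in the real fit) and with 15597 unchanged genes beside the changed ones. It called 66.7% of 108 genes set to a log2 difference of 1 and 98.9% of 92 set to 2. Levels of a class carry exact Poisson 95% intervals and shares of cells exact binomial ones, the floor for a count of 0 is 3 counts, and shares were compared after thinning to 4600 UMIs, which left out shallower cells (18 and 17 of the macrophages). In total 163405630 and 135436576 UMIs set the precision, and cells over 50000 UMIs (460 and 308) held 39.8% and 32.1% of the kept UMIs. Named were the 10 genes, per comparison the 3 largest called changes in each direction of the chemokine list, and the genes of likest pattern, of which a few, and some clusters, are not reported here. Alternatives were DESeq2 1.42.0, other cell filters, resolution, gates and blocks, and single libraries.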

Additional observations from a re-analysis of the deposited data

Results flagged for a closer look

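The 3 genes that were highest in macrophages were also read outside the cells analysed. In barcodes of 10 to 100 UMIs Csf1r was at 185 CPM in replicate 1 and 307 CPM in replicate 2, Cx3cr1 at 143 and 404 CPM, and Ccl2 at 275 and 200 CPM. These barcodes enter none of the comparisons, and the levels lie above those over all kept cells in both libraries. So did Csf1 (19.6 and 26.6 against 7.32 and 5.70 CPM), Cxcr4 (24.9 and 16.9 against 8.52 and 8.09 CPM) and, by less, Cxcl14. Cxcl12 and Ackr3 lay below in both libraries, and Il34 and Cx3cl1 differed between the libraries. Ccl2 was higher in these barcodes than in the macrophage class in replicate 1 (275 against 199 CPM), while Csf1r and Cx3cr1 were lower than there in both libraries. The UMIs of Csf1r, Cx3cr1 and Ccl2 were spread thinly, with 141 and 249 barcodes holding Csf1r and at most 3 UMIs of any of the 3 genes in 1 barcode. In barcodes of 101 to 1999 UMIs the levels were 13.9 and 13.2 CPM for Csf1r, 9.62 and 15.7 CPM for Cx3cr1 and 4.55 and 3.41 CPM for Ccl2, and the summed macrophage markers fell from 1690 and 2880 CPM to 186 and 184 CPM along with them.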

How the results depend on the processing

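The number of the 10 genes called stayed within 1.5 times its main value in each comparison and alternative, except that 5 rather than 3 were called between arterial and plexus endothelium without doublet removal. Signs turned in 7 single changes. Csf1r in endothelium became 0.15 without doublet removal and 0.32 at a minimum of 5000 UMIs. Il34 in podocytes became 0.56 at a mitochondrial limit of 5%, 0.94 without cells over 50000 UMIs and 0.22 at a Leiden resolution of 0.5. Cxcl12 between stroma and endothelium became -0.38 at the 5% limit, and Cxcl14 in the nephron became -1.04 without cells over 50000 UMIs. Another 24 calls ended with the sign kept, most of them of Il34 and Cxcl14. The causes were not tested. Fewer classes entered some fits: no distal tubule was named at the 5% limit, at resolution 0.5 or without cells over 50000 UMIs, no loop of Henle in the last of these and no ureteric epithelium or adventitial gate at the 5% limit, and no comparison of cortical with medullary stroma could be made at the 5% limit, where no medullary gate was left. All 47 called changes held with cluster names alone, with no filter on low counts, with the Ccr2-led cluster counted as macrophage (an alternative chosen after seeing the data) and without cells of other classes that hold 3 macrophage markers. Without the replicate block 1 call ended, Cxcl12 between stroma and endothelium (adjusted p = 0.059), as it did by DESeq2 (0.073). The block is the library that the class sums share. With either library alone none of the 47 changes turned its sign, 21 moved by more than the spread without replicate 1 and 11 without replicate 2, and no residual degrees of freedom were left for a test. Shares of cells without thinning are printed beside several of the thinned ones. Depth limits Ccl2 in endothelium and the epithelial classes, and Cxcr4 in macrophages, podocytes, stroma and proximal tubule, where levels rest on few UMIs.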
